A study of Mus musculus with 9 samples.

Results

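The type 2 cytokines and the cytokine of itch, together with the receptor chains that bind them, were followed as a set of 9 genes in back skin RNA of mice with atopic dermatitis (AD)-like lesions. The set was fixed by gene name and holds the ligands Il4, Il13, Il5 and Il31 and the receptor chains Il4ra, Il13ra1, Il13ra2, Il31ra and Osmr. These are 9 of the 55401 genes of the count table, and 8 of them are among the 34637 genes of the table of FPKM values, which are fragments scaled for gene length and library depth. The ninth, Il31, is not listed there and was found in the count table by its identifier.

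All mice were C57BL/6 males aged 6 to 8 weeks, with no genetic change stated, whose shaved back skin was painted with 2,4-dinitrochlorobenzene (DNCB), a small reactive molecule that raises a contact allergy. The first dose, at 1%, was on day 1 and repeated doses at 0.5% ran from day 4 to day 21. The Model group received water (4 libraries) and the FJDHF-M group received the medium dose of the Fangji Dihuang formulation, an herbal decoction, by mouth daily after day 7 (5 libraries), and the experiment ended on day 28. Both groups therefore carry the DNCB allergy and the comparison asks what the formulation changed in diseased skin, not how diseased skin differs from normal skin. Untreated mice were not analysed here.

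The libraries carry the codes MXL1, MXL12, MXL3_4 and MXL_3, taken as the Model group, and MR1, MR3, MR3_4, MR4_5 and MR5, taken as the FJDHF-M group. Neither the labels nor the paper explain these codes. The assignment rests on the number of columns and on a reading of MX as an abbreviation of model in Chinese, so the direction of each difference given here rests on it too. No code was matched to a single mouse, and whether a code such as MR3_4 marks RNA pooled from several mice was not tested, so n counts libraries.

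Type 2 immunity is the arm of the immune system that leads in allergy. IL-4 and IL-13, made mainly by T helper 2 cells and innate lymphoid cells, signal through receptors that share the IL-4 receptor alpha chain and act through the transcription factor STAT6, while IL-5 sustains eosinophils. IL-31 acts on sensory neurons and keratinocytes through a pair of chains, IL-31 receptor A and the oncostatin M receptor, and is known for itch in AD, and both IL-31 and the IL-4 receptor alpha chain are targets of antibodies given against AD or its itch.

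The genes lie at these places in the mouse genome (build GRCm38, the same in the FPKM table and in the GENCODE M21 annotation for the 8 genes listed there). The ligand genes Il4 (minus strand, chr11:53602982-53618669), Il13 (minus strand, chr11:53631324-53634702) and Il5 (plus strand, chr11:53720794-53725106) are neighbours, with 12654 bases between Il4 and Il13 and 86091 between Il13 and Il5. Il31 lies on the minus strand at chr5:123480157-123489489. The chain Il4ra is on the plus strand at chr7:125552120-125579474, Il31ra on the minus strand at chr13:112519898-112594360 and Osmr on the minus strand at chr15:6813577-6874969. Both IL-13 receptor chains are on the X chromosome but far apart, Il13ra1 on the plus strand at chrX:36112110-36171259 and Il13ra2 on the minus strand at chrX:147383476-147429192.

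Exons of Il31ra overlap those of Gm3226 on the same strand, and Gm3226 had 474 to 741 counts per library, so reads in the overlap cannot be told apart. Il5, Il31 and Il4ra overlap exons of genes on the opposite strand (Gm12214, Lrrc43 and Gm44876), which had 0 counts in all 9 libraries.

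Promoter sequence was searched for 3 short motifs on both strands, namely TTC and GAA with any 4 bases between them, which STAT6 prefers, TTCNNNGAA, which other STAT proteins prefer, and AGATAA, which GATA factors bind. RefSeq promoter windows (GRCm38.p6, 250 bases before to 50 after a gene start) were found for all 9 genes and number 10, because Il4 has 2. The STAT6 motif was in 1 of the 10 windows and in 6.95% of 32851 windows of the same length, the STAT motif in 2 windows (8.30% of all windows) and the GATA motif in 2 windows (11.2% of all windows). A STAT motif of the other Il4 window begins at position -4 and runs past the start. The sequences of the 4 windows with a match before the start are shown because STAT proteins carry the signals of these receptors and GATA3 directs type 2 cells, and each is given 5′ to 3′ on the strand of the gene, with the match in capitals. They are the window of Il4 at chr11:53618666-53618915 (minus strand, match at position -167), of Il13 at chr11:53634703-53634952 (minus strand, match at -81), of Il31ra at chr13:112580663-112580912 (minus strand, match at -191) and of Il13ra2 at chrX:147429193-147429442 (minus strand, match at -15, read on the other strand). A match is a description of the letters and not a bound site.
Il4: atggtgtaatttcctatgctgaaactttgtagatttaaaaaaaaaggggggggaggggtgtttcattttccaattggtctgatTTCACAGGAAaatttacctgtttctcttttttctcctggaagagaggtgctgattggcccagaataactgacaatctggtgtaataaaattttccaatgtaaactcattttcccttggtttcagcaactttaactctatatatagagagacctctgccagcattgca
Il13: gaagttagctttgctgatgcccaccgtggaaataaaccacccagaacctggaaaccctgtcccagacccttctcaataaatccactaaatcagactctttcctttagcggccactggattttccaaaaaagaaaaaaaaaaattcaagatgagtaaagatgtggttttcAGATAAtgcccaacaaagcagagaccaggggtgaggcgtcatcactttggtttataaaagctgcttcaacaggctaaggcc
Il31ra: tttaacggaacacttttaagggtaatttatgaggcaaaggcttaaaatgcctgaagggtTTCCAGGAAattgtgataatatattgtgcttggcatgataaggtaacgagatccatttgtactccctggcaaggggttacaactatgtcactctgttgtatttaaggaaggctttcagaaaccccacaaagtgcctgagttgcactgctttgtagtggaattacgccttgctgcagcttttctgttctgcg
Il13ra2: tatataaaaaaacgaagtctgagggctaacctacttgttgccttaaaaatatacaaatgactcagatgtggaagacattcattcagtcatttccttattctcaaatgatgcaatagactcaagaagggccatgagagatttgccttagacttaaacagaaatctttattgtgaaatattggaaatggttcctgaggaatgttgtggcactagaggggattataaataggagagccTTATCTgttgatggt

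Total counts per library lay between 74648669 and 79474215. Low counts fell in steps, with 9269 values of 4 in the table against 4568 of 3 and 3045 of 5. For this reason 12 counts, which are 3 steps of 4, were taken as the floor. Levels are given as CPM (counts relative to the library's total, scaled by TMM). Without the TMM scaling the floor corresponds to 0.151 to 0.161 CPM. With it, 12 counts in MR3_4 were 0.165 CPM. This floor covers counting error alone. No step that removes copies made by PCR was run here, so counts may exceed the number of separate molecules. The skin label was checked on its defining genes, with all 7 keratinocyte and all 6 fibroblast markers above the floor in each of the 9 libraries. The summed level of the 7 keratinocyte markers was 3150 to 12500 CPM in Model and 9070 to 15300 CPM in FJDHF-M, and that of the 6 neutrophil markers was 512 CPM in MXL12 and 19.0 to 141 CPM in the other 8 libraries.

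The receptor chains Il13ra1, Il4ra and Osmr had the highest levels of the set in this skin, the ligand Il4 lay between the chains Il13ra2 and Il31ra, and Il5, Il13 and Il31 had the lowest. On the FPKM scale, which allows levels of different genes to be compared per length, the mean over the 9 libraries fell from 57.1 for Il13ra1 through 11.4 for Il4ra, 6.44 for Osmr, 1.58 for Il13ra2, 0.877 for Il4 and 0.501 for Il31ra to 0.0448 for Il5 and 0.0263 for Il13, and Il31 had no count. The level of Il13ra1 was above that of Il4ra, and Osmr above Il13ra2, in 9 of 9 libraries with ranges that do not overlap. The other neighbours in this order had overlapping ranges. Il4ra was above Osmr in 8 of 9 libraries, Il13ra2 above Il4 and Il4 above Il31ra in 7 of 9 each.

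**Figure D1:**
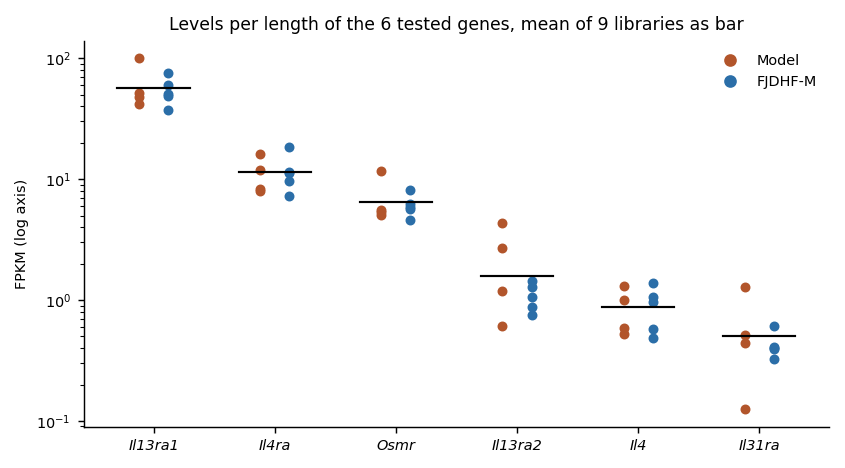
The plot gives the FPKM value (vertical log axis) of the 6 genes that passed the filter on low counts, 1 point per library by group, with the mean of all 9 libraries as a bar. Il13ra1 stands highest with 37.0 to 100 FPKM, and the points of Model and FJDHF-M overlap for each gene.

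Il4, Il4ra, Il13ra1, Il13ra2, Il31ra and Osmr passed edgeR's filter on low counts, whereas Il13, Il5 and Il31 did not. Of the 6 tested genes, 0 differed between FJDHF-M and Model by edgeR's quasi-likelihood test (two-sided) at a Benjamini-Hochberg adjusted p under 0.05, where 0.0% of all 20817 tested genes did, and each of the 6 had an adjusted p of 1.00. At an unadjusted p under 0.05 there were again 0 of 6, against 1.57% of all tested genes. DESeq2's Wald test called 0 of the 6 and had 1 with an unadjusted p under 0.05, which was Il13ra2 with a p of 0.0372 and an adjusted p of 1.00, where the same test called 0.00961% of all tested genes and had 2.21% of them at an unadjusted p under 0.05. The corresponding counts by limma on log2(FPKM + 1) were 0 and 0 of the 6, against 0.0% and 1.86% of all tested genes. The level of 2 genes was nominally higher and that of 4 lower in FJDHF-M, with a median log2 fold change of -0.19, while the median over all tested genes was -0.03 and 44.1% of them had a positive value. The groups overlapped in each of the 6 tested genes, and 0.514% of all tested genes separated them. In RNA from whole skin, fewer cells of a type and less RNA per cell cannot be told apart.

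**Figure D2:**
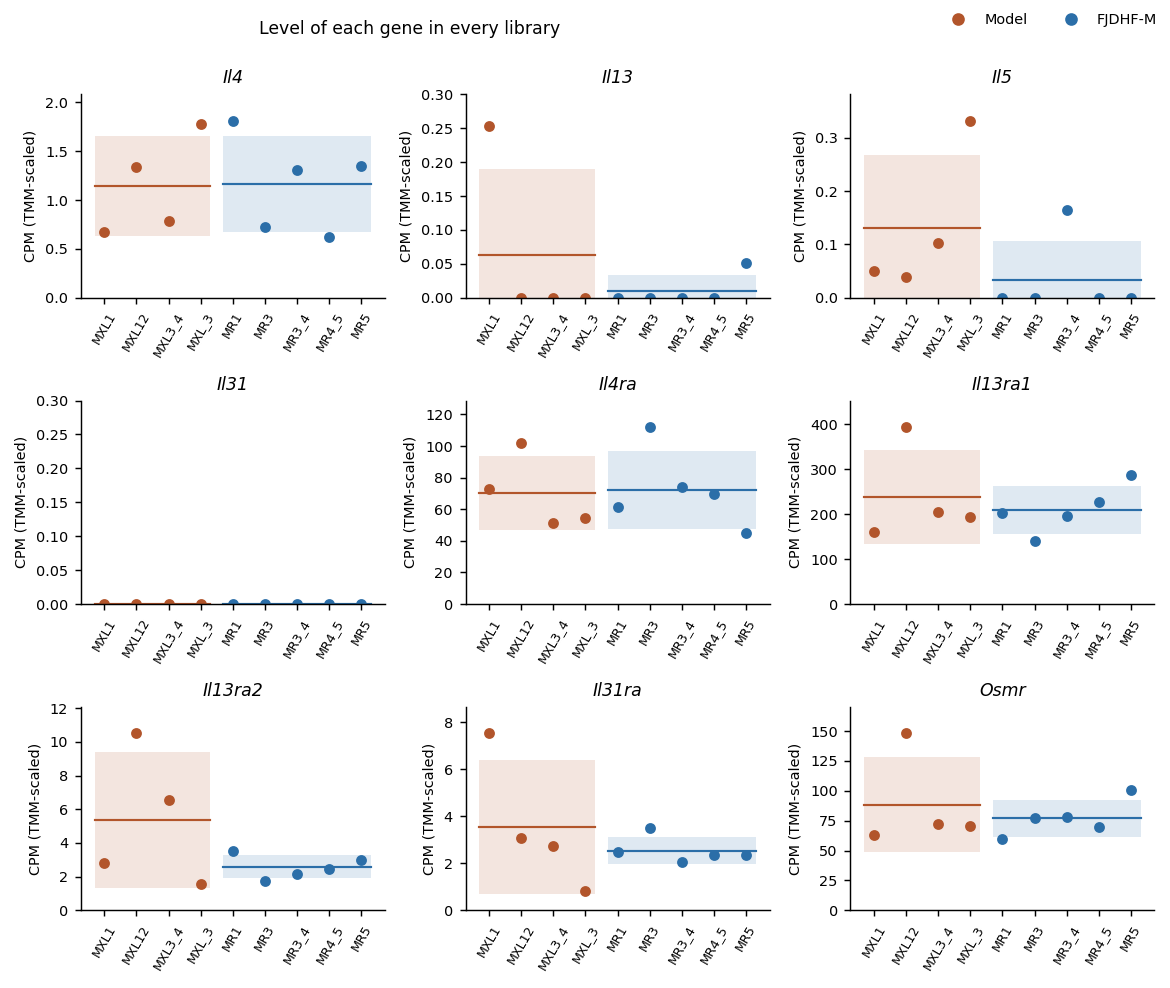
Each panel gives the level of 1 gene as CPM (linear axis from 0) in every library, with the group mean as a line and ± 1 SD as a band (n = 4 Model, n = 5 FJDHF-M). The groups overlap in every panel, MXL12 is the highest point for Il13ra1, Il13ra2 and Osmr, and MXL1 is the highest for Il31ra.

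**Figure D3:**
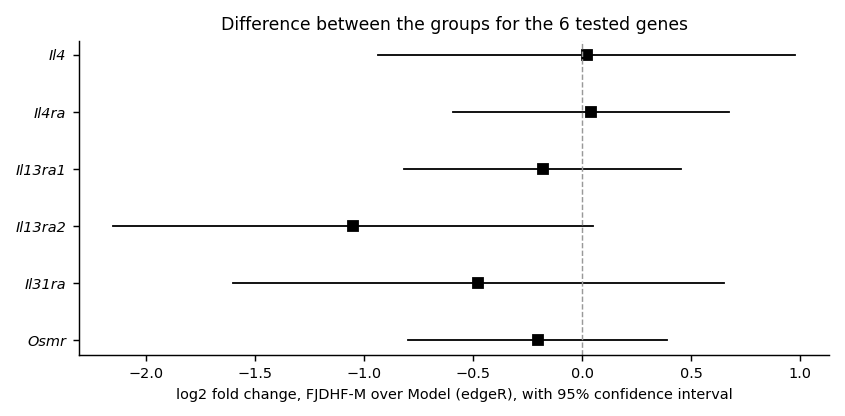
Squares give edgeR's log2 fold change of FJDHF-M over Model for the 6 tested genes, and lines give its 95% confidence interval (n = 4 and n = 5). The interval of each gene includes 0, and that of Il13ra2 comes nearest to leaving it out, ending at 0.05.

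Of the ligands, only Il4, the cytokine that drives the differentiation of T helper 2 cells and IgE switching, was above the floor in all 9 libraries. Its counts were 53, 101, 61 and 129 in MXL1, MXL12, MXL3_4 and MXL_3 and 136, 58, 95, 49 and 106 in MR1, MR3, MR3_4, MR4_5 and MR5. The highest and the lowest value were both in FJDHF-M, and the Model values lay between them. The level was 1.14 ± 0.516 CPM (SD, n = 4) in Model and 1.16 ± 0.490 CPM (SD, n = 5) in FJDHF-M, with a log2 fold change of 0.02 ± 0.43 (SE) and a 95% confidence interval of -0.94 to 0.98 (edgeR's quasi-likelihood test, adjusted p = 1.00). A two-sided exact permutation test on log2(CPM + 0.5) gave p = 0.968. The interval spans a 0.523-fold to a 1.97-fold level, so a smaller change of Il4 was not detectable with these libraries. Without MR1 the fold change was -0.20 and without MXL_3 it was 0.32, which are the libraries with the most Il4 in each group.

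The library with the most Il4, MR1, also had the highest summed level of the T cell markers (42.1 CPM, against 16.5 to 29.4 in the others), of the macrophage markers (915 CPM, against at most 860.0 in the others) and of the eosinophil markers (15.6 CPM, against 4.65 to 13.4). The part of these cells in the Il4 level was not tested. Mast cells and basophils are known sources of Il4 as well, and their markers were highest in MR5 (519 CPM) and MXL12 (8.64 CPM).

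Il13, which acts on keratinocytes and fibroblasts to loosen the skin barrier and thicken the tissue, was at the floor nearly everywhere. It had 20 counts in MXL1, 4 in MR5 and 0 in the other 7 libraries. A count of 0 allows a level of up to 0.151 to 0.161 CPM without the TMM scaling, depending on the library. The difference in mean log2(CPM + 0.5) was -0.12 with an exact permutation p of 0.889, and 0.03 without MXL1, so a difference in Il13 was not detectable at this depth.

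Il5, the growth and survival factor of eosinophils, had 4, 3, 8 and 24 counts in MXL1, MXL12, MXL3_4 and MXL_3 and 0, 0, 12, 0 and 0 in the FJDHF-M libraries MR1, MR3, MR3_4, MR4_5 and MR5. Each of the Model libraries thus had some count and 4 of the 5 FJDHF-M libraries had none, but only MXL_3 was above the floor and the groups overlapped through MR3_4. The difference in mean log2(CPM + 0.5) was -0.23 with an exact permutation p of 0.254, where 0.0159 is the smallest p that 4 libraries against 5 allow. Without MR3_4 it was -0.31 with an exact permutation p of 0.0286, which is the smallest that 4 libraries against 4 allow. MR3_4 was the only FJDHF-M library with an Il5 count, so leaving it out fixed that p, which is no separate test. With the floor at 12 counts these values do not separate low from absent Il5. The summed level of the eosinophil markers was 5.52 to 12.6 CPM in Model and 4.65 to 15.6 CPM in FJDHF-M. Among the Model libraries it was highest in MXL_3, the library with the most Il5, but over all 9 libraries it was highest in MR1, which had 0 Il5 counts.

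Il31 had 0 counts in all 9 libraries, which allows a level of up to 0.151 to 0.161 CPM in each without the TMM scaling. No fold change or test was possible.

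The IL-4 receptor alpha chain, Il4ra, which takes part in both forms of the IL-4 receptor, was well above the floor in all 9 libraries. Its counts were 5775, 7742, 4000 and 3939 in MXL1, MXL12, MXL3_4 and MXL_3 and 4630, 8975, 5376, 5522 and 3519 in MR1, MR3, MR3_4, MR4_5 and MR5. MR3 was highest and MR5 lowest, so FJDHF-M held both ends of the range. The level was 70.4 ± 23.4 CPM (SD, n = 4) in Model and 72.4 ± 24.9 CPM (SD, n = 5) in FJDHF-M, with a log2 fold change of 0.04 ± 0.29 (SE), an interval of -0.59 to 0.67 and an adjusted p of 1.00 (edgeR's quasi-likelihood test). The exact permutation p was 0.921. The sign of this value depended on the scaling, since it was -0.12 once the median of genes of similar GC content was taken out of each library, and it was -0.20 without MR3. Among all tested genes, Socs3, a feedback inhibitor of cytokine receptors, was 1 of the 3 whose level followed that of Il4ra most closely (Pearson's r = 0.905 and Spearman's rho = 0.95 over 9 libraries, 0.886 without the 2 libraries farthest from the median, a description, since the values share library and depth).

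Il13ra1, which pairs with the IL-4 receptor alpha chain to form the receptor for IL-13 on cells other than lymphocytes, was the most abundant gene of the set. It had 12703, 29748, 15979 and 14003 counts in MXL1, MXL12, MXL3_4 and MXL_3 and 15201, 11174, 14254, 18028 and 22520 in MR1, MR3, MR3_4, MR4_5 and MR5. MXL12 stood highest, and the other Model libraries lay within the range of FJDHF-M. The level was 239 ± 105 CPM (SD, n = 4) in Model and 210 ± 53.4 CPM (SD, n = 5) in FJDHF-M. The log2 fold change was -0.18 ± 0.29 (SE), with an interval of -0.82 to 0.45 and an adjusted p of 1.00 (edgeR's quasi-likelihood test), and the exact permutation p was 0.698. Without MXL12 the fold change turned to 0.17.

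Il13ra2, which binds IL-13 tightly and is known mainly as a decoy that takes it away from the signalling receptor, showed the largest difference of the set. It had 222, 793, 507 and 112 counts in MXL1, MXL12, MXL3_4 and MXL_3 and 264, 141, 158, 195 and 235 in MR1, MR3, MR3_4, MR4_5 and MR5. MXL12 and MXL3_4 were above all FJDHF-M libraries, MXL1 was within their range and MXL_3 was below it, so the Model group held both the highest and the lowest value. The level was 5.35 ± 4.03 CPM (SD, n = 4) in Model and 2.58 ± 0.685 CPM (SD, n = 5) in FJDHF-M.

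The log2 fold change of Il13ra2 was -1.05 ± 0.50 (SE), with a 95% interval of -2.15 to 0.05, an unadjusted p of 0.0589 and an adjusted p of 1.00 (edgeR's quasi-likelihood test), which places it at rank 381 of the 20817 tested genes. The exact permutation p was 0.254. An absolute log2 fold change of at least 1 was found in 3.98% of all tested genes. The sign stayed negative in each of the 17 alternatives run, and the size depended on single libraries, being -0.50 without MXL12 (unadjusted p = 0.298) and -1.36 without MXL_3 (unadjusted p = 0.00852, adjusted p = 1.00). Most of the spread lay in 1 group, with a coefficient of variation of 75.4% in Model and 26.6% in FJDHF-M, and a difference between these spreads was not tested.

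MXL12, the library with the most Il13ra1, Il13ra2 and Osmr, was also the one with the most neutrophil marker RNA (512 CPM), and MXL12, MXL3_4 and MXL_3 had less keratinocyte marker RNA (3630, 5090 and 3150 CPM) than MXL1 (12500 CPM) and each FJDHF-M library. The part of these cells in the receptor levels was not tested. MXL12 and MR5 also had the most RNA of low-GC genes relative to high-GC genes (log2 differences of 0.84 and 0.85). Il13ra1 was highest in these libraries (394 and 287 CPM). It was lowest in MR3 and MXL1 (140 and 161 CPM), where this difference was -0.73 and -0.93. Il13ra2 and Osmr were lowest in other libraries, MXL_3 and MR1. The part of GC content in the receptor levels was not tested. Over the 9 libraries the log2 levels of Il13ra1 and Osmr had a Pearson's r of 0.81, and 0.50 without MXL12. Those of Il13ra1 and Il13ra2 had an r of 0.70, and 0.32 without MXL12. The tested genes most like Il4, Il13ra1 and Il13ra2 in level were Lhfpl2, Gm3512 and Cwc27 (Pearson's r = 0.986, 0.984 and 0.937 over 9 libraries). Without the 2 libraries farthest from the median of each gene, these values were 0.977, 0.967 and 0.681. All of these values share library and depth and are given as a description.

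The IL-31 receptor is made of Il31ra, the chain particular to IL-31, and Osmr, which also serves oncostatin M. Il31ra had 594, 233, 211 and 58 counts in MXL1, MXL12, MXL3_4 and MXL_3 and 185, 281, 149, 186 and 183 in MR1, MR3, MR3_4, MR4_5 and MR5. MXL1 was the highest and MXL_3 the lowest of all 9 libraries, the ratio of their levels being 9.37, and the FJDHF-M libraries lay between them. The level was 3.53 ± 2.84 CPM (SD, n = 4) in Model and 2.54 ± 0.564 CPM (SD, n = 5) in FJDHF-M, with coefficients of variation of 80.4% and 22.2%.

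The log2 fold change of Il31ra was -0.48 ± 0.51 (SE), with an interval of -1.60 to 0.65 and an adjusted p of 1.00 (edgeR's quasi-likelihood test), and the exact permutation p was 0.683. It was 0.20 without MXL1 and -0.81 without MXL_3, so its direction rested on MXL1. Among the tested genes the level of Nck2 followed that of Il31ra most closely over the 9 libraries (Pearson's r = 0.927), but the value was 0.27 without MXL1 and MXL_3.

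Osmr had 4991, 11187, 5582 and 5114 counts in MXL1, MXL12, MXL3_4 and MXL_3 and 4462, 6171, 5637, 5517 and 7893 in MR1, MR3, MR3_4, MR4_5 and MR5. MXL12 was the highest library and the other Model libraries lay within the range of FJDHF-M. The level was 88.5 ± 39.9 CPM (SD, n = 4) in Model and 76.8 ± 15.2 CPM (SD, n = 5) in FJDHF-M. The log2 fold change was -0.20 ± 0.27 (SE), with an interval of -0.80 to 0.39 and an adjusted p of 1.00 (edgeR's quasi-likelihood test), the exact permutation p was 0.698, and without MXL12 the fold change turned to 0.16. The gene whose level was most like that of Osmr was Nr4a3, an immediate early transcription factor (Pearson's r = 0.962 and Spearman's rho = 0.917 over 9 libraries, r = 0.777 without the 2 farthest).

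**Figure D4:**
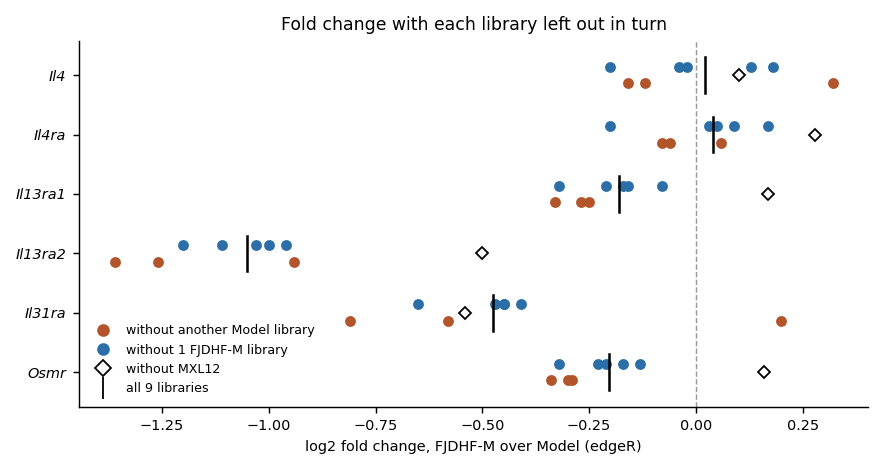
Points give edgeR's log2 fold change of FJDHF-M over Model for each tested gene when 1 library was left out, by the group of that library, with MXL12 as an open diamond and the value from all 9 libraries as a bar. The diamonds of Il13ra1 (0.17) and Osmr (0.16) lie on the other side of 0 from their bars, as does 1 Model point of Il31ra (0.20 without MXL1). The points of Il4 (-0.20 to 0.32) and Il4ra (-0.20 to 0.28) lie on both sides of 0, whereas all points of Il13ra2 lie between -1.36 and -0.50.

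The balance of 3 receptor pairs was compared within each library, given here as a ratio of FPKM values and tested on the log2 ratio of CPM + 0.5. The chain Il31ra was at 25.4% of Osmr in MXL1, 4.42% in MXL12, 8.03% in MXL3_4 and 2.35% in MXL_3, and at 8.81%, 9.67%, 5.61%, 7.14% and 4.91% in MR1, MR3, MR3_4, MR4_5 and MR5. Il31ra was thus the scarcer transcript in all 9 libraries. The mean log2 ratio differed by -0.01 between the groups (two-sided exact permutation p = 1.00, 3 ratios were compared and p-values are not adjusted over them), and by 0.55 without MXL1.

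The decoy Il13ra2 was at 2.83%, 4.34%, 5.16% and 1.29% of Il13ra1 in MXL1, MXL12, MXL3_4 and MXL_3 and at 2.81%, 2.04%, 1.80%, 1.76% and 1.69% in MR1, MR3, MR3_4, MR4_5 and MR5. In 3 of the 4 Model libraries the share was above that of each FJDHF-M library, in MXL1 by a narrow margin, and in MXL_3 it was below all of them. The mean log2 ratio was lower in FJDHF-M by a difference of -0.54 with an exact permutation p of 0.190. Without MXL_3 the difference was -0.87 with an exact permutation p of 0.0357, the smallest that 3 libraries against 5 allow, and with 9 libraries left out in turn such a value for 1 of them is no separate test.

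The shared chain Il4ra was at 28.1%, 16.1%, 15.5% and 17.4% of Il13ra1 in MXL1, MXL12, MXL3_4 and MXL_3 and at 18.8%, 49.7%, 23.3%, 18.9% and 9.66% in MR1, MR3, MR3_4, MR4_5 and MR5. Il4ra was below Il13ra1 in each library, and FJDHF-M held both ends of the range in MR3 and MR5. The difference in mean log2 ratio was 0.16 (exact permutation p = 0.746), and -0.15 without MR3. The libraries also differed in the balance of RNA from genes of low and high GC content, and the cause was not tested. MR3 and MXL1, where this ratio was highest, were those with the least RNA of low-GC genes relative to high-GC genes (log2 differences of -0.73 and -0.93, against -0.21 to 0.85 in the others). The longest annotated transcript of Il4ra had a GC content of 55.8% and that of Il13ra1 of 41.2%. With GC taken out the difference was 0.08.

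**Figure D5:**
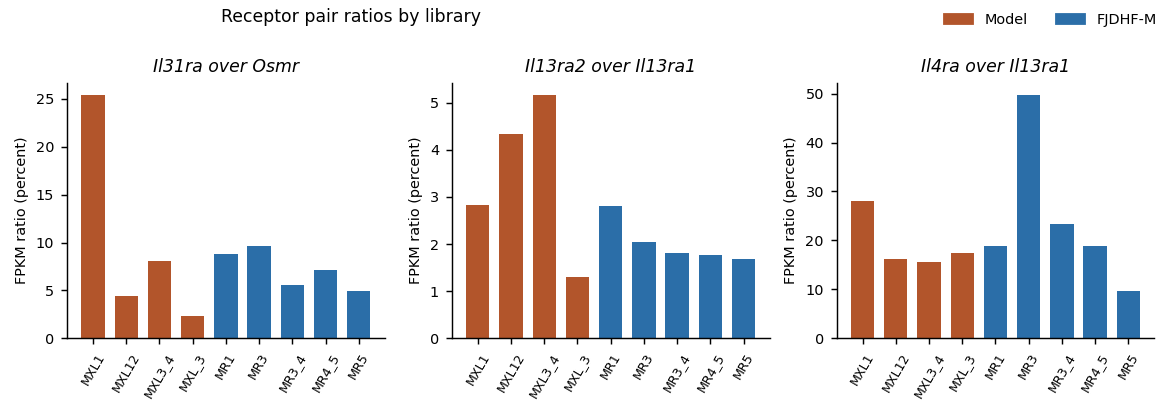
Bars give the FPKM of the first gene as a percent of the second in each library (linear axis from 0) for 3 receptor pairs, by group. Il31ra over Osmr is highest in MXL1 (25.4%), Il13ra2 over Il13ra1 in MXL3_4 (5.16%) and Il4ra over Il13ra1 in MR3 (49.7%).

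Around these genes, 65 further genes of the same pathways were counted in 7 lists, of which 61 passed the filter. edgeR's quasi-likelihood test called 0 of the 61, where it called 0.0% of all 20817 tested genes. DESeq2's Wald test and limma called 0 as well, against 0.00961% and 0.0% of all tested genes. By edgeR 1 of the 61 had an unadjusted p under 0.05, a share near the 1.57% of all tested genes. The fold change was positive in 29 and negative in 32, with a median of -0.02 (log2). Over all tested genes 44.1% were positive and the median was -0.03, which also stand beside each list below. The one gene was Il33, an alarmin of keratinocytes that activates type 2 cells. It had 20820 counts in MXL12, between 2077 and 5127 in the remaining Model libraries and 2315 to 3790 in FJDHF-M. Its log2 fold change was -1.37 ± 0.62 (SE), with unadjusted p = 0.0496 and adjusted p = 1.00 by edgeR's quasi-likelihood test. The exact permutation p was 0.429.

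Downstream of the IL-4 and IL-13 receptors, 10 of 10 genes were tested, 2 with a positive and 8 with a negative fold change (median -0.08). Jak1, the kinase bound to the IL-4 receptor alpha chain, had the highest level of them (38.5 FPKM) and a log2 fold change of -0.07 ± 0.19 (SE). Jak2 had the smallest p of the list (log2 fold change -0.36 ± 0.24 (SE), unadjusted p = 0.154 and adjusted p = 1.00 by edgeR's quasi-likelihood test), with 14175 counts in MXL12 against 6230 to 9571 elsewhere. Of 13 genes known to respond to IL-4 and IL-13, all 13 were tested, 9 with a positive and 4 with a negative value (median 0.26). Among these, Postn, the matrix protein periostin, had 421 FPKM on average and a log2 fold change of 0.47 ± 0.39 (SE), and Fcer2a, the low-affinity IgE receptor, had 12, 9, 11 and 7 counts in Model, none above the floor, and 44, 14, 10, 12 and 39 in FJDHF-M (exact permutation p = 0.0794).

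For the IL-5 receptor and eosinophil growth factors, 4 of 5 genes were tested, 1 positive and 3 negative (median -0.22), and the shared beta chain Csf2rb had a log2 fold change of -0.32 ± 0.30 (SE), its paralogue Csf2rb2 of -0.12 ± 0.22 (SE). Reads of these near-identical genes may be split between them. In the branch of IL-31 and oncostatin M, 8 of 8 genes were tested, 3 positive and 5 negative (median -0.06). There Il6st, the gp130 chain that pairs with the oncostatin M receptor, had 48.3 FPKM and a log2 fold change of -0.08 ± 0.21 (SE). Osm, the other ligand of Osmr, had 815 counts in MXL12 against 17 to 138 in the other 8 libraries. Its log2 fold change was -1.69 ± 0.96 (SE), with unadjusted p = 0.108 and adjusted p = 1.00 by edgeR's quasi-likelihood test, and an exact permutation p of 0.667. The library with the most Osm was thus the library with the most Osmr.

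Of 11 genes of type 2 lymphocytes, 9 were tested, 6 positive and 3 negative (median 0.11). Il17rb, the receptor of IL-25, came nearest to a difference among them, with a log2 fold change of 0.61 ± 0.32 (SE) and an adjusted p of 1.00 (edgeR's quasi-likelihood test), and Maf, a transcription factor that promotes Il4, had a value of 0.11 ± 0.22 (SE). Of 7 alarmins and their receptors, 6 were tested, 2 positive and 4 negative (median -0.27). All 11 itch mediators were tested, 6 positive and 5 negative (median 0.04). Hdc, the enzyme that makes histamine, had 5820 counts in MXL12 against 230 to 842 in the other 8 libraries. Its log2 fold change was -1.75 ± 0.85 (SE), with adjusted p = 1.00 by edgeR's quasi-likelihood test and an exact permutation p of 0.81. F2rl1, the protease receptor PAR2, had a log2 fold change of -0.19 ± 0.34 (SE).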

How the data were processed

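Polyadenylated RNA of mouse back skin was sequenced from both ends. The authors deposited whole-number read counts per gene, without normalization, and FPKM values scaled by them for gene length and depth. The submitters' processing notes name HISAT, StringTie, DESeq2 and mm10, without versions. The annotation release and the use of strand in counting are not given in the sources used here. A further 9 per-library columns of counts in the FPKM table were not used.

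The groups were compared with edgeR 4.0.16 under R 4.3.3, with the filterByExpr filter, TMM scaling, the quasi-likelihood test without covariates and Benjamini-Hochberg adjustment over 20817 genes. Single values were compared with the two-sided exact permutation test of scipy 1.17.1 (Python 3.11.15) on log2(CPM + 0.5). That test was run for 8 genes of the set with a count and for genes of the pathway lists. The labels number single mice, but the column codes were not matched to them, so p-values measure the spread between libraries. The fits were tested on simulated data.

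Named were the 9 genes, the gene with the smallest p and that with the highest FPKM of each pathway list, and genes most correlated with a tested gene. Members, lists and tests were chosen with earlier results of these data known. Alternatives were DESeq2 1.42.0, limma 3.58.1 on log2(FPKM + 1), other filters and pseudocounts, FPKM for CPM, each library left out and a replicate block. Counts divided by 4 and a GC correction over 20 bins were added after seeing the data. Figures were drawn with matplotlib 3.10.9.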

Additional observations from a re-analysis of the deposited data

Results flagged for a closer look

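Dixon's ratio, the gap of the highest or lowest library to the nearest other one divided by the range of the group, was computed for 70 groups of 4 or 5 libraries. It passed the 95% critical value (0.829 for 4 and 0.710 for 5) in 6 groups. For values that are not tied at 0, chance gives 3.5. Il13 was highest in MXL1 of Model (ratio 1.00, 20 counts) and in MR5 of FJDHF-M (ratio 1.00, 4 counts), and Il5 in MR3_4 of FJDHF-M (ratio 1.00, 12 counts), in each case with the other libraries of the group at 0. With the others at 0 the ratio is fixed at 1.00 for any count. These flags of Il13 and Il5 say only that 1 library of the group had a count. Osmr was highest in MXL12 of Model (ratio 0.846), with 148 CPM against 63.2 to 72.0 CPM in the other 3. The T cell marker score, the mean log2(CPM + 0.5) of the list, was lowest in MXL3_4 of Model (ratio 0.895), and the eosinophil marker score was highest in MXL_3 of Model (ratio 0.860).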

How the results depend on the processing

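Each of the 9 libraries was left out in turn, and the lowest and highest log2 fold change (edgeR) was -0.20 to 0.32 for Il4, -0.20 to 0.28 for Il4ra, -0.33 to 0.17 for Il13ra1, -1.36 to -0.50 for Il13ra2, -0.81 to 0.20 for Il31ra and -0.34 to 0.16 for Osmr. The difference in mean log2(CPM + 0.5) ranged from -0.13 to 0.19 for Il4, -0.17 to 0.03 for Il13, -0.31 to -0.09 for Il5, -0.14 to 0.23 for Il4ra, -0.29 to 0.14 for Il13ra1, -1.07 to -0.27 for Il13ra2, -0.59 to 0.28 for Il31ra and -0.27 to 0.14 for Osmr, and that of the log2 ratios from -0.87 to -0.31 for Il13ra2 over Il13ra1, -0.38 to 0.55 for Il31ra over Osmr and -0.15 to 0.44 for Il4ra over Il13ra1. Two-sided exact permutation tests passed 0.05 for Il5 without MR3_4 (p = 0.0286) and for Il13ra2 over Il13ra1 without MXL_3 (p = 0.0357). Neither is a separate test, and the first was fixed by leaving out the only FJDHF-M library with an Il5 count.

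Other alternatives turned the sign of Osmr to 0.05 with the replicate block, of Il4ra to -0.12 (edgeR) and -0.03 (log2 CPM) with GC bins taken out, and of Il31ra over Osmr to 0.02 with a pseudocount of 0.1. The cause was not tested. The replicate block used numbers shared by the column codes. With the group mean taken out, levels correlated at 0.225, -0.219 and 0.118 within these pairs. No unmatched pairs were compared, so these values cannot decide whether the codes mark pairs, and the main fit used no block. With the block, 0 genes were called and 281 had an unadjusted p under 0.05 by edgeR (326 without it). Il13ra2 was then at -0.35, Il31ra at -0.03 and Il4ra at 0.44 (-1.05, -0.48 and 0.04 without the block). DESeq2's Wald test called 2 genes, neither of the set. Genes at an unadjusted p under 0.05 numbered 905 without a filter, 217 without MR4_5 and 734 without MXL1. In pathway lists each alternative kept 0 calls, and the median of alarmins moved between -0.52 and 0.02, that of the IL-5 receptor list between -0.42 and 0.25. Il13 and Il5 did not pass the filter, so edgeR gave no value for them. The sign of 5 of the 6 tested genes, namely Il4, Il4ra, Il13ra1, Il31ra and Osmr, turned in at least 1 alternative. Levels under the chosen floor of 12 counts were treated as not told apart from 0.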
